A study of Mus musculus with 2 samples.

Results

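The 10 genes described here encode the 7 subunits of AMP-activated protein kinase (AMPK), its upstream kinase LKB1, and the transcription factor CREB with its coactivator CRTC2. They were taken by name from the 21900 protein-coding genes of the mouse RefSeq annotation (assembly GRCm38.p6, called mm10); the rule uses no score or position, but the list was drawn up with earlier results of these data known. For each gene, every summit of the deposited H3K9bhb peak list that lay inside it or within 5 kb of it was collected. A summit is the 1 bp position that stands for the highest point of a peak. Of the 10 genes, 3 had such a summit (Prkab2, Prkag2 and Crtc2), 1 each, and 7 had none. Over all protein-coding genes the share was 11.4%, from which 3 of 10 cannot be told. The summit counted for Crtc2 lay outside it and nearer to another gene.

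AMPK is a heterotrimer of a catalytic α, a scaffolding β and an AMP-sensing γ subunit, and LKB1 phosphorylates the α subunit when cellular energy falls. CREB is a cAMP-responsive transcription factor, and CRTC2 is a coactivator that enters the nucleus when its inhibitory phosphorylation by salt-inducible kinases and AMPK is lost. In T cells AMPK, mainly with the α1 subunit, helps cells to endure nutrient shortage and to form memory. H3K9bhb is histone H3 carrying a β-hydroxybutyryl group on lysine 9, a mark made from a ketone body.

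The data come from splenocytes of OT-I mice (C57BL/6 strain), whose T cells carry a transgenic receptor for an ovalbumin peptide. They were activated for 3 days with that peptide (200 ng/ml) and interleukin-2 (10 ng/ml), then held for 4 days in interleukin-15 (10 ng/ml), which gives memory-like CD8+ cells, and exposed to β-hydroxybutyrate for 3 days. The series holds 1 H3K9bhb ChIP library, made with 4 µg of antibody, and 1 input DNA library from such cells. Both were sequenced as paired 150 bp reads, 70 M per experiment, per the labels.

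The ChIP library has no replicate, and no untreated culture was analysed here, so no value below is a response to β-hydroxybutyrate and none carries a p-value. The list held 2315 summits in 2204 peaks. Each has a score, the authors' −log10 of a p or q value, with a median of 5.04 and quartiles of 3.33 and 6.78 over peaks. Read counts behind single peaks are unknown. A called peak is not by itself proof of the mark, since 9 peaks lay on mitochondrial DNA, which has no histones. Cell identity could not be read from the list. Of 12 CD8+ T cell markers, Cd8a, Cd3e and Lck among them, 0 had a summit. Of 12 markers of B, myeloid, CD4+ T and NK cells 0 did (exact upper limit 26.5% for either, against 11.4% of all protein-coding genes). A gene without a called summit may therefore still be active or carry the mark.

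Across all protein-coding genes, 2489 of 21900 (11.4%, 95% exact interval 10.9 to 11.8) had a summit inside them or within 5 kb. The 3 of 10 genes found here (exact interval 6.67 to 65.2%) cannot be told from that share, because the interval of so few genes includes it. Among the 7 AMPK subunits the count was 2 (28.6%, 3.67 to 71.0). With a summit counted only for the protein-coding gene whose end is nearest to it, the count was 2 of 10 against 9.24% of all genes. Within 2 kb of a transcription start listed in RefSeq's promoter table it was 1 of the 9 members in that table (all but Crtc2), against 9.58% of the 17492 protein-coding genes listed there. The 3 summits therefore differed in kind: 1 at the gene's own start, 1 near the end of the transcript, and 1 outside the gene and nearer to a neighbour.

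Prkab2, which encodes the β2 subunit, was the member with a summit at its own start. The gene lies on chromosome 3 from 97658211 to 97673812, on the plus strand, and is 15.6 kb long. Its summit at 97658666 was inside the gene, 455 bp from the lower-coordinate end, where transcription starts, and 15146 bp from the other end. From the listed start the distance was 454 bp downstream. The nearest other protein-coding gene end, that of Fmo5, a flavin-containing monooxygenase, was 3379 bp away, so no other end was nearer. The score was 5.41, a value that 43.7% of peaks reached or passed. Scores in this list are coarse, and 64 peaks had this same value. It was the highest score of the 3 summits.

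Prkab1, which encodes the β1 subunit, had no summit. It lies on chromosome 5 from 116013586 to 116024503, on the minus strand, and the closest summit was 382 kb away, 222 bp from an end of Rab35, a trafficking GTPase. That summit scored 2.12, which 96.6% of peaks reached or passed. The β pair thus had 1 member with a summit at its start and 1 with 3 whole protein-coding genes between it and the closest summit. The promoters of the pair are shown because these genes encode alternative forms of the same subunit and differ in having a summit. Each window runs from 250 bases before to 50 bases after the start, 5′ to 3′ on the gene's strand, from RefSeq (GRCm38.p6). In this and the later sequences, capitals mark each match to GGGCGG, the GC box bound by Sp and Klf factors, or to TGACG, the core of the cAMP response element, on either strand.
Prkab2 promoter, chr3:97657962-97658261, plus strand: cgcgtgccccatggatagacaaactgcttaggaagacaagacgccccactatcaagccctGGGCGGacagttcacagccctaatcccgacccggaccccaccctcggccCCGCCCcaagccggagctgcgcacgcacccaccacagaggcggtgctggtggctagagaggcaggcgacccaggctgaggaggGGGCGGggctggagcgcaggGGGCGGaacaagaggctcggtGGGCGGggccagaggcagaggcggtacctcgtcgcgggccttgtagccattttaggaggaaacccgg
Prkab1 promoter, chr5:116024379-116024678, minus strand: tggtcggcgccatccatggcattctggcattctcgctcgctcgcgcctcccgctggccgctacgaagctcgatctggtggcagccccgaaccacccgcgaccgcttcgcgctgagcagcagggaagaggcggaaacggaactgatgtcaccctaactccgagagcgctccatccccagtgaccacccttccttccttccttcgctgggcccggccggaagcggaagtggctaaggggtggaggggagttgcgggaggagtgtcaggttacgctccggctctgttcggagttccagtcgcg

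The Prkab2 window held 5 GC boxes and 23 CG dinucleotides, and the Prkab1 window held 0 GC boxes and 30 CG dinucleotides. Of 21263 promoter windows of protein-coding genes, 46.2% held at least 1 GC box and 3.75% held 5 or more. Neither window held TGACG. The Prkab2 summit itself lay outside the printed window, since 454 bp downstream is past its last base. These matches are letters in a window and were not tested as binding sites.

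Prkag2, which encodes the γ2 subunit, had a summit near the end of its transcript and far from its listed starts. The gene lies on chromosome 5 from 24862735 to 25106282, on the minus strand, and at 244 kb it is the longest of the 10. Its summit at 24863614 was inside the gene, 879 bp from the lower-coordinate end, where the transcript ends, and 242668 bp from the higher-coordinate end. No other gene end was nearer. The next was an end of Rheb, the GTPase that activates mTOR complex 1, at 21253 bp. RefSeq's table lists 3 starts for Prkag2, and the closest of them, at 24908509, was 44895 bp from the summit. That end of Rheb is also its listed start, so by starts alone the summit was nearer to Rheb than to Prkag2. The score was 3.76, which 68.8% of peaks reached or passed.

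Such a position was uncommon in this list. Of the 2204 peaks, 1600 (72.6%, 70.7 to 74.4) had their highest summit within 2 kb of the start of a protein-coding gene (a listed start, or the gene end on that side), and 45 (2.04%, 1.49 to 2.72) lay within 2 kb of a transcript end and of no start, the Prkag2 peak among them. A further 319 peaks (14.5%) had within 2 kb only ends of genes that lack a listed start and could not be placed in either class. Median scores were 5.11 in the first class and 4.26 in the second. The share of protein-coding genes with a summit also varied with gene length. It was 7.46% for the 11861 genes under 20 kb and 15.8% from 20 to 100 kb. From 100 to 200 kb it was 17.9%, and for the 990 genes of 200 kb or more it was 14.5%. The start of Prkag2 closest to the summit is shown because its sequence has the features common at starts with summits, while the summit lies elsewhere.
Prkag2 promoter, chr5:24908460-24908759, minus strand: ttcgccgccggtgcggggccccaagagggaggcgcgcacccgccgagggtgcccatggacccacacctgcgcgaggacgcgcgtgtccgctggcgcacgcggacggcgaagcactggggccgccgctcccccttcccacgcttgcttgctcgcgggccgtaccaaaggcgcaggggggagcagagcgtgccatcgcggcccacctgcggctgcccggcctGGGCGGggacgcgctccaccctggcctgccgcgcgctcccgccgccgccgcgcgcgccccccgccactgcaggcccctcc

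This window held 1 GC box and 45 CG dinucleotides, a number that 2.48% of windows reached or passed. The other listed Prkag2 windows held 25 CG dinucleotides and 2 GC boxes (start at 25100642) and 6 CG dinucleotides and 0 GC boxes (start at 24995753). No listed start of Prkag2 had a summit within 2 kb.

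The other γ genes had no summit. Prkag1, which encodes the broadly expressed γ1 subunit, lies on chromosome 15 from 98812797 to 98831508, and the closest summit was 36.3 kb away, 1699 bp from an end of Wnt10b, a secreted Wnt ligand (score 6.63). Prkag3, which encodes the γ3 subunit known from skeletal muscle, lies on chromosome 1 from 74738922 to 74749471. Its closest summit was 53.9 kb away, 853 bp from an end of Wnt10a, another Wnt ligand (score 9.12). In both cases the closest summit was nearest to a different gene and outside the 5 kb flank.

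The catalytic genes were the farthest from any summit. Prkaa1 encodes α1 and lies on chromosome 15 from 5143861 to 5181899. Its closest summit was 1530 kb away, 113 bp from an end of Rictor, the defining subunit of mTOR complex 2, and scored 12.4, a score reached or passed by 2.86% of peaks. Prkaa2 encodes α2, the form known from muscle and liver, and lies on chromosome 4 from 105029649 to 105109898. Its closest summit was 1450 kb away, with a score of 3.85. Each had 0 summits within 1 Mb, as did 4141 of all protein-coding genes (18.9%). The other members had between 3 and 8 summits within 1 Mb. Between each catalytic gene and its closest summit lay 5 whole protein-coding genes.

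**Figure D1:**
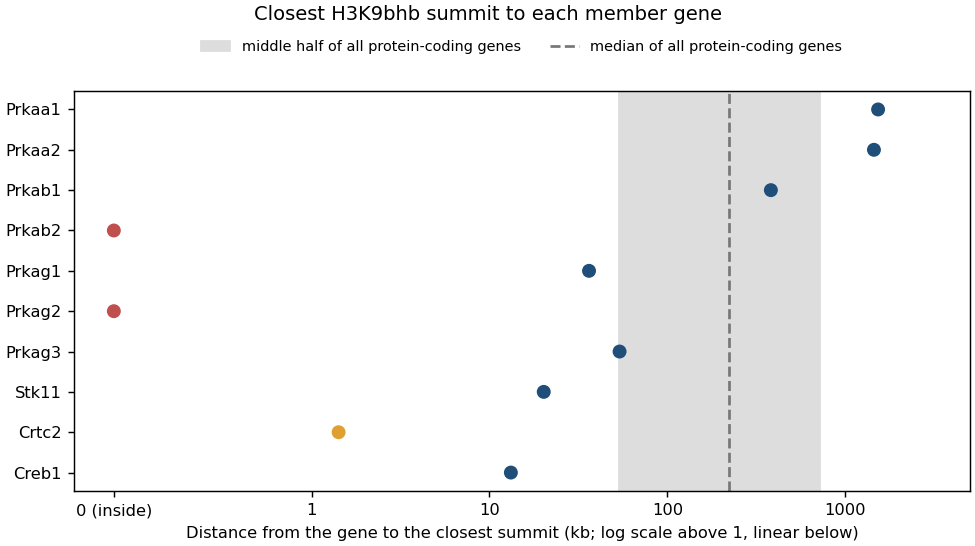
Distance from each of the 10 member genes (rows) to the closest H3K9bhb summit in kb, on a log scale above 1 kb; the grey band spans the quartiles over all protein-coding genes (53.3 to 725 kb) and the dashed line is their median (222 kb). Prkab2 and Prkag2 hold a summit (red), Crtc2 has one within 5 kb (orange), and Prkaa1 and Prkaa2 lie past the grey band.

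Stk11, which encodes LKB1, had no summit inside it or within 5 kb. The gene lies on chromosome 10 from 80115767 to 80130679, on the plus strand. The closest summit, at 80150917, was 20.2 kb past its transcript end with a score of 4.09. It lay 4912 bp from an end of Midn, a nuclear protein gene, and 1235 bp downstream of a listed start of that gene. Stk11 had 8 summits within 1 Mb, the most of the 10 members, so the region around it was not empty of peaks.

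Crtc2 was the member whose summit was nearer to another gene. Crtc2 lies on chromosome 3 from 90253858 to 90264125 and is 10.3 kb long. The summit at 90265547 was outside the gene, 1422 bp from its higher-coordinate end and 11689 bp from its lower-coordinate end. An end of Dennd4b, which encodes a protein with a DENN domain that acts on Rab GTPases, was 527 bp away. The summit was inside Dennd4b, 312 bp downstream of 1 listed start of that gene and 967 bp upstream of another. The score was 4.22, shared by 71 peaks and reached or passed by 65.4% of them all. By nearest end this summit was assigned to Dennd4b; since no start was listed for Crtc2, the 2 genes were not compared by starts. The Dennd4b window is shown because it is the start closest to the summit counted for Crtc2.
Dennd4b promoter, chr3:90264985-90265284, plus strand: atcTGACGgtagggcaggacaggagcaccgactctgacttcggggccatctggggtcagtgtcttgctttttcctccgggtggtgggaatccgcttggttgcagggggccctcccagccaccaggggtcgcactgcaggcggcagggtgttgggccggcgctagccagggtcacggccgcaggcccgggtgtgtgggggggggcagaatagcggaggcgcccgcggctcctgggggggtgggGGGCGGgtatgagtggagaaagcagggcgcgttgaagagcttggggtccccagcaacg

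It held 1 TGACG, 1 GC box and 20 CG dinucleotides. TGACG was found in 23.6% of promoter windows, so its presence is common.

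**Figure D2:**
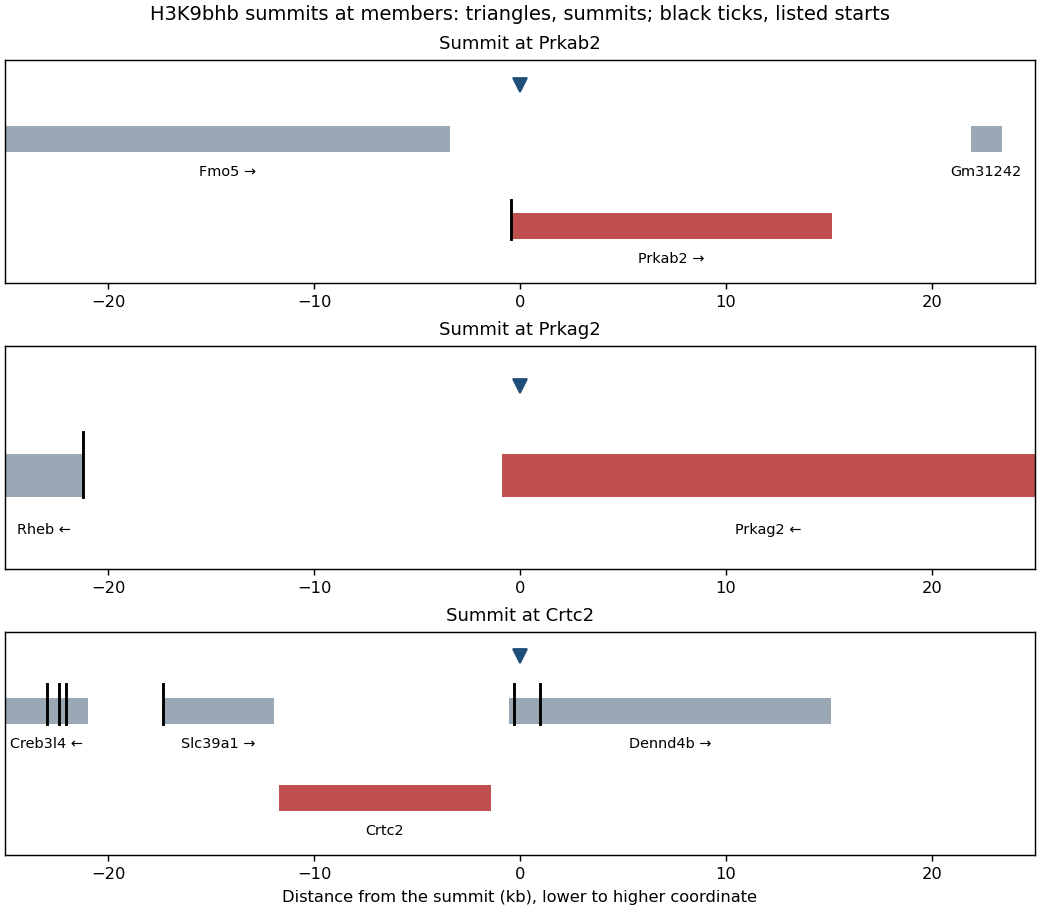
Protein-coding and long non-coding genes (bars, members in red, arrows for the strand where a start is listed) within 25 kb of each member's summit (triangle at 0), with distance in kb from lower to higher coordinate and black ticks at starts listed by RefSeq. The Prkab2 summit sits beside the Prkab2 start, the Prkag2 summit near the transcript end of Prkag2, and the Crtc2 summit inside Dennd4b.

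Creb1, which encodes CREB, was the member without a summit that came closest to having one. It lies on chromosome 1 from 64532794 to 64604548, on the plus strand. The closest summit, at 64617705, was 13157 bp past its transcript end, outside the 5 kb flank and also outside a 10 kb flank, while the Crtc2 summit, 1422 bp away, was the farthest from its gene of those counted for the 10 members. The summit near Creb1 was 59 bp downstream of a listed start of Mettl21a, a lysine methyltransferase, and scored 3.33. The Creb1 promoter is shown because it could be searched for the element that CREB itself binds.
Creb1 promoter, chr1:64532554-64532853, plus strand: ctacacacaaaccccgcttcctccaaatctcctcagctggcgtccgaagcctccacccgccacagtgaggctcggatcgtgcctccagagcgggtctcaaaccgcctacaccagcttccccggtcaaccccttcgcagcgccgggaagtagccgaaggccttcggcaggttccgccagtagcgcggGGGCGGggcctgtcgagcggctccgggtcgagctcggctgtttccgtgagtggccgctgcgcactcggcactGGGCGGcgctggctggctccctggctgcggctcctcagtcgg

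The window held 2 GC boxes, 31 CG dinucleotides and no match (0) to TGACG. Its start was 84901 bp from the closest summit.

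**Figure D3:**
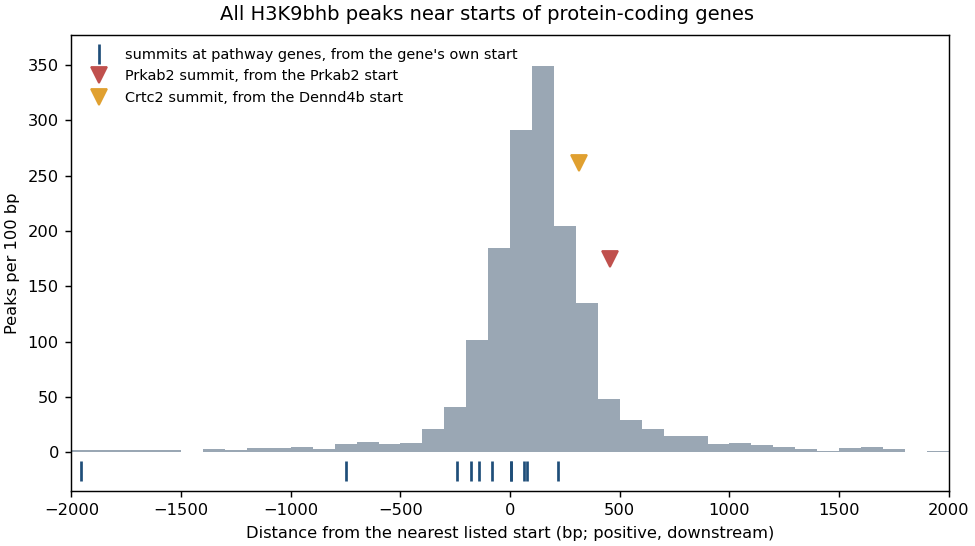
Peaks per 100 bp by signed distance in bp from the nearest listed start of a protein-coding gene (grey bars, positive is downstream), with summits at pathway genes as blue ticks and 2 member summits as triangles, whose height has no meaning. Most peaks lie just downstream of a start. The Prkab2 summit, at 454 bp, and the Crtc2 summit, 312 bp from the nearest Dennd4b start, lie on the downstream flank.

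Across the list, 1560 peaks were within 2 kb of a listed start, 73.7% of them downstream of it, with a median of 123 bp downstream and quartiles of 11 bp upstream and 246 bp downstream. The Prkab2 summit, at 454 bp, and the Crtc2 summit, at 312 bp from the nearest Dennd4b start, were both beyond the upper quartile on the downstream side. The Prkag2 summit has no place on this scale.

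The member with a summit at its start did not have the most CG-rich promoter. The 9 members in the promoter table have 11 listed starts, with 6 to 52 CG dinucleotides per 300-base window and a median of 30, against a median of 13 (quartiles 4 and 24) over all protein-coding windows. Windows with a summit within 2 kb of their start had a median of 27 CG dinucleotides, and those without had 11. The share with a summit was 1.28% for windows with 0 to 9 CG dinucleotides, 7.64% for 10 to 19, 15.9% for 20 to 29 and 24.9% for 30 or more. Of the 11 member starts, 8 had 20 or more, and 1 of those, that of Prkab2 with 23, had a summit within 2 kb. Prkaa1 had the most, with 52, a count reached by 0.705% of windows, and it was the start farthest from any summit. GC boxes were in 8 of the 11 windows (46.2% of all windows and 76.9% of those with a summit within 2 kb). Prkaa1 had 5, as many as Prkab2. CCAAT was in 4 of 11 (38.2% of all windows), TGACG in 3 (Prkaa2, Prkag1 and Stk11, 1 match each), and neither TATAAA nor the full cAMP response element TGACGTCA was in any (0 of 11; 12.6% and 2.23% of all windows). TGACGTCA, where present, also counts as a match to TGACG on each strand.

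**Figure D4:**
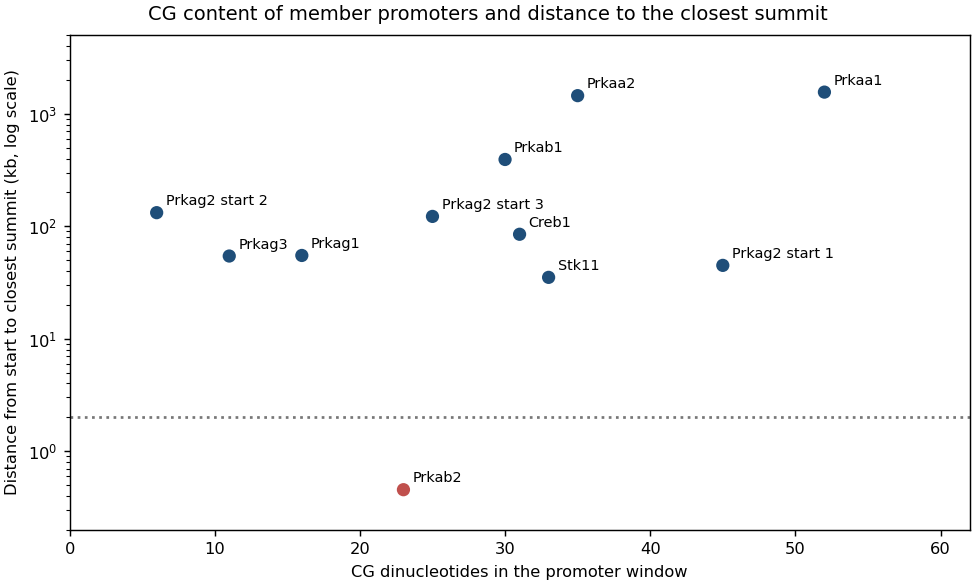
CG dinucleotides in each 300-base promoter window of the members (horizontal) against the distance in kb from its start to the closest summit (vertical, log scale), with Prkag2 starts numbered from the lowest coordinate. Only the Prkab2 start lies under the dotted line at 2 kb, with 23 CG dinucleotides; Prkaa1, with 52, is the highest point.

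The wider pathway was read from 7 lists with 60 genes outside the 10. Of these, 14 (23.3%, 13.4 to 36.0) had a summit inside them or within 5 kb, against 11.4% of all genes. Of the 54 with a listed start, 10 had one within 2 kb of it (18.5%, against 9.58%). The lists were chosen with earlier results of these data known, so these shares and those below do not test the pathway against all genes. The listed genes are long, with a median of 55.9 kb against 17.1 kb over all protein-coding genes, and 15.8% of genes between 20 and 100 kb had a summit. At starts the share also rose with CG dinucleotides in the window, from 1.28% at 0 to 9 to 24.9% at 30 or more. The parts of length and of CG content in the counts were not tested. The 16 summits at the pathway genes scored between 3.85 and 11.6 with a median of 6.10. Of these, 10 scored higher than any of the 3 summits at the members.

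None (0) of the genes in the lists upstream of AMPK had a summit within 5 kb. Of the LKB1 partners and other AMPK kinases (Strada and Cab39 among them) it was 0 of 7, and of the lysosomal regulators and phosphatases (such as Flcn and Fnip1) also 0 of 7. The exact upper limit for 0 of 7 is 41.0%, so neither count can be told from the 11.4% of all genes. Camkk1, a calcium-dependent kinase of the first list, was 5889 bp from its closest summit and would count with a 10 kb flank. That summit was nearer to an end of Ncbp3, another protein-coding gene, at 95 bp. Of the kinases that LKB1 activates besides AMPK, 3 of 12 had a summit (5.49 to 57.2%, which includes 11.4%). Sik1 and Sik2, salt-inducible kinases that phosphorylate CRTC coactivators, had summits 362 bp inside and 82 bp outside a gene end, with scores of 5.04 and 5.11, and the one at Sik2 was 141 bp upstream of its listed start. Nuak1, a kinase of cell adhesion, had one 243 bp upstream of its start with a score of 7.95. Sik3 had none.

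Among AMPK substrates, 3 of 10 had a summit (6.67 to 65.2%, which includes 11.4%), and Pfkfb3 and Tbc1d1 are described here. Pfkfb3, an enzyme that raises an activator of glycolysis, had one 84 bp upstream of the nearer listed start with a score of 10.5. Tbc1d1, a Rab GTPase-activating protein of glucose uptake, had 2 summits, at 64160262 and 64230419 on chromosome 5, scoring 4.54 and 6.08. They lay 2 and 62 bp downstream of 2 different listed starts of the gene. By gene ends alone the second was 74114 bp from an end of Tbc1d1 and nearer to one of Gm46913, a predicted gene, at 16887 bp, so ends and starts place it differently. Both windows are shown because each has a summit at its start.
Tbc1d1 promoter at the lower-coordinate start, chr5:64160010-64160309, plus strand: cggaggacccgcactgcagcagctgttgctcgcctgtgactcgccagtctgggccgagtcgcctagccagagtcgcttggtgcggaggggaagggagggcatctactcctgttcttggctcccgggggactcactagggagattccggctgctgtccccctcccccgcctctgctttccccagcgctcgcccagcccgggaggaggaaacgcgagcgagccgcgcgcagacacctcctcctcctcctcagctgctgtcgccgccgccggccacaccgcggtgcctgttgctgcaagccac
Tbc1d1 promoter at the higher-coordinate start, chr5:64230107-64230406, plus strand: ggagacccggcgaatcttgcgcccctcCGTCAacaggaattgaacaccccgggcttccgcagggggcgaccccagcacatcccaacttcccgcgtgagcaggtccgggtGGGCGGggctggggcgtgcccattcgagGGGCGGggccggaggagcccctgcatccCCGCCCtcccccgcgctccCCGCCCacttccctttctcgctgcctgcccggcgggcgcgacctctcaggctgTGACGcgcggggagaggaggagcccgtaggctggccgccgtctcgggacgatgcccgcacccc

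The first Tbc1d1 window held 0 GC boxes and 0 matches to TGACG, and the second held 4 GC boxes and 2 matches to TGACG. The summits thus lay at starts with and without these letters.

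Of the genes on the CREB side, 8 of 24 had a summit (33.3%, 15.6 to 55.3), and of those on the LKB1 and AMPK side 6 of 36 (16.7%, 6.37 to 32.8); the share over all genes was 11.4%, the intervals overlap and the difference was not tested. Among the CREB relatives and coactivators 3 of 6 had one (11.8 to 88.2%). Crtc1, like Crtc3 a relative of Crtc2, had a summit 49 bp outside a gene end and 178 bp upstream of its listed start. That summit scored 6.78, and Crtc3 had none. Crem, a CREB relative, had one 358 bp inside a gene end (score 6.08). Crebbp, the acetyltransferase CBP that binds CREB, had one 195 bp outside its start side and 748 bp upstream of its listed start (score 6.83). Another Crebbp summit was 3665 bp outside its transcript end (score 4.27). That second summit was nearer to an end of Trap1, a mitochondrial chaperone, at 171 bp. Ep300 and Atf1 had none.

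Of the subunits of the cAMP-dependent kinase that phosphorylates CREB, 3 of 6 had a summit (11.8 to 88.2%, against 11.4% of all genes), and all 3 were within 2 kb of a listed start (9.58% of all genes with one). Prkacb, a catalytic subunit, had one 4 bp downstream of a start (score 6.12). Prkar1b and Prkar2a, regulatory subunits, had theirs 79 and 220 bp downstream (scores 3.85 and 7.56), and for Prkar1b an end of Dnaaf5 was 491 bp away. Prkaca had none.

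Of the CREB target genes 2 of 12 had a summit, a share of 16.7% (2.09 to 48.4) that includes the 11.4% of all genes. Nr4a3, a nuclear receptor induced by T cell receptor and cAMP signals, had one at 48043349 on chromosome 4, 1729 bp outside the gene and 1956 bp upstream of its listed start. Its score of 11.6 was the highest of the 19 summits at member and pathway genes. Ppargc1a, the coactivator of mitochondrial biogenesis, had one 2190 bp inside the gene end on its start side (score 4.54), but 545938 bp from its listed start, with a start of Dhx15 nearer at 76883 bp. The related receptor gene Nr4a1 had no summit, its start being 504679 bp from the closest one. The Nr4a3 window is shown because it is rich in the core of the CREB element.
Nr4a3 promoter, chr4:48045055-48045354, plus strand: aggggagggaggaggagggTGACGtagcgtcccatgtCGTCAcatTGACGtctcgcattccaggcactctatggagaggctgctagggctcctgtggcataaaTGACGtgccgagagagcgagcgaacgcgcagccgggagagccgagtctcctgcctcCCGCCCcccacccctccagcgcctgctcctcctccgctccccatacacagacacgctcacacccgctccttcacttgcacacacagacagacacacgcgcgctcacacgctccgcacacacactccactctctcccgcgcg

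The Nr4a3 window held 4 matches to TGACG, and so did those of Nr4a1 and Nr4a2, a number reached by 0.325% of promoter windows. The full TGACGTCA was absent from the Nr4a3 window (0 matches). Of the Nr4a genes, Nr4a3 had a summit within 2 kb of its start, while Nr4a1 and Nr4a2 had none, the Nr4a2 start being 114384 bp from the closest one. Over all protein-coding windows, TGACG was in 34.2% of those with a summit within 2 kb of the start and in 22.5% of those without. GGGCGG was in 76.9% and 43.1%, and the full TGACGTCA in 3.1% and 2.15%. Windows with a summit also held more CG dinucleotides (median 27 against 11), and TGACG itself contains CG. The part of CG content in these shares was not tested.

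**Figure D5:**
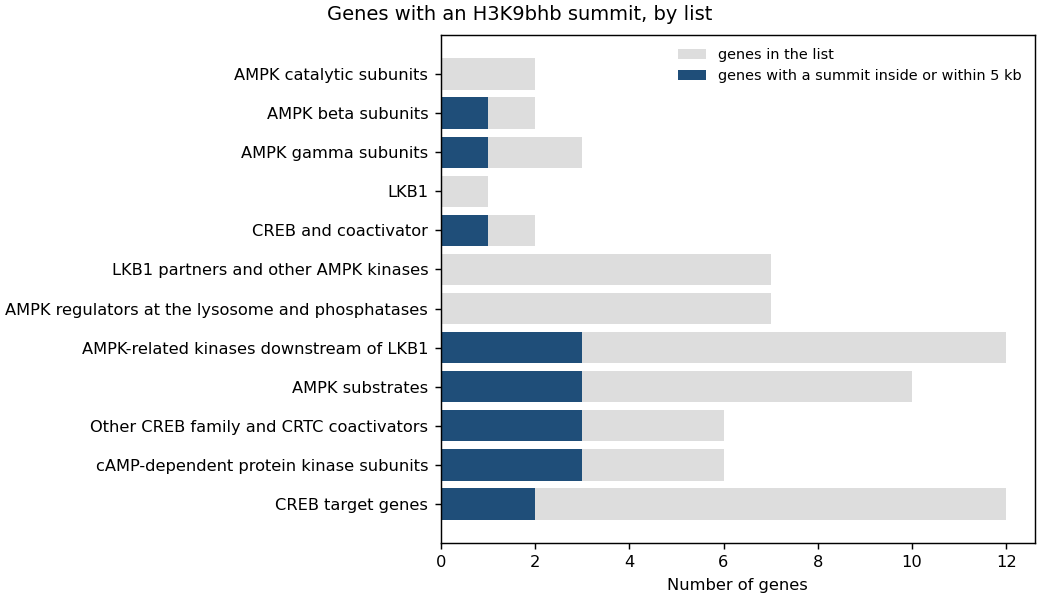
Number of genes in each list (grey) and number with a summit inside or within 5 kb (blue), for the 5 groups of members at the top and the 7 pathway lists below them. Lists without a blue bar hold 1 to 7 genes, too few to be told from the 11.4% of all genes. With a 10 kb flank Camkk1 would give the list of LKB1 partners 1 gene with a summit, though that summit was nearer to Ncbp3.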

How the data were processed

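The peak list of the ChIP library was used; the input library was not analysed here. Of tools, the submitters' processing notes name MACS2 2.1.2, Bowtie2 2.3.5, Trimmomatic 0.39 and FastQC 0.11.8, with build mm10. Caller settings, and whether the input served as control, were not given in the sources used here. Each 1 bp summit has a deposited score, the authors' −log10 of a p or q value, and nothing says which. Scores rank peaks within this list only.

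Summits were set against RefSeq gene spans (GRCm38.p6) and against starts in RefSeq's promoter table, which is not complete. All 10 members and 60 pathway genes matched by symbol. A gene had a summit when one lay inside it or within 5 kb. Distances to starts were added after the summits had been seen. Intervals are exact (Clopper-Pearson, 95%) and, like the limits for 0 counts, cover counting error only. Named were all members, pathway genes with a summit and neighbours with the nearest end, apart from 1 of each of the last 2 kinds that is not reported here; pathway genes without a summit and Gm46913 are named as examples chosen after their values were seen. The members and lists were chosen with earlier results of these data known. Motifs were searched on both strands. Functions were tested on simulated summits. Python 3.11.15 was used with scipy 1.17.1, pandas 2.3.3, numpy 2.4.6 and matplotlib 3.10.9.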

Additional observations from a re-analysis of the deposited data

How the results depend on the processing

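Prkab2, Prkag2 and Crtc2 were the members with a summit with flanks of 2, 5 and 10 kb and with the highest-scoring summit of each peak alone. Among the upper 50% of peaks by score the count fell from 3 to 1 (Prkab2), as it did with a listed start within 2 kb (also 1). The share of all genes was 10.7% with 2 kb flanks, 13.0% with 10 kb flanks, 5.77% in the upper 50% of peaks (fewer peaks by construction), 9.24% counting nearest-end genes alone, and 9.58% with starts. Pathway genes with a summit numbered between 10 and 15. With ends of all annotated genes, another end was still nearer for 1 member summit, that of Crtc2. No paired analysis was possible because there is 1 ChIP library. A gene without a call may carry the mark below the caller's threshold, and the part of sequencing depth in the absences was not tested.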
